A study of Mus musculus with 9 samples.

Results

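Matrix metalloproteinases (MMPs) and their tissue inhibitors (TIMPs) were followed in mouse embryonic fibroblasts in which HSF1 or RPA1 was targeted by a short hairpin RNA (shRNA). The group held 10 genes, taken by symbol: Mmp2, Mmp3, Mmp9, Mmp10, Mmp13, Mmp14, Mmp19, Timp1, Timp2 and Timp3. All 10 were among the 19938 genes measured, each by 1 probe set, and no filter on low signal was applied. The cells were an immortalized fibroblast line of ICR background, and every group, the control included, was infected with an adenovirus at 1e8 pfu per ml for 2 h and kept for 70 h afterwards at 37 degrees. The virus carried 1 of 3 hairpins: a scrambled control shRNA, HSF1 shRNA or RPA1 shRNA. HSF1 is the transcription factor that drives heat shock genes, and RPA1 is the biggest subunit of RPA, which coats single-stranded DNA. Each shRNA had 3 Affymetrix Mouse Gene 1.0 ST arrays. The question of the study was which genes depend on HSF1 and RPA acting as a complex. Whether the 3 arrays of a hairpin came from separate cultures is not stated in the labels, so the p-values measure only the spread between these samples.

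MMPs are zinc-dependent endopeptidases that are made as inactive proenzymes and cut collagens, fibronectin, proteoglycans and other matrix proteins once their propeptide is removed. TIMPs bind the active site of MMPs and block it. Fibroblasts are a main source of both, and the genes of several secreted MMPs are known targets of AP-1, a dimer of FOS and JUN family proteins.

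The fibroblast label was checked on 10 marker genes. In the control group Vim read 14.01, Col1a1 13.03, Dcn 13.04 and Fap 6.15, and the blood cell markers Ptprc and Adgre1 read 5.96 and 5.99. These are only some of the markers. Summed over all 10 fibroblast markers the control arrays read 15.55 to 15.58 on the log2 scale. Over all 8 blood cell markers they read 9.84 to 9.98. Probe sets differ in brightness at equal RNA, so these readings describe the arrays and do not settle the label. Rpa1 fell 4.05-fold under its shRNA (log2 difference -2.02 ± 0.04, SE; adjusted p = 3.5e-08, limma), but no probe set for Hsf1 alone was used here, so the HSF1 knockdown behind every HSF1 shRNA value was not checked. RPA1 shRNA array 3 stood apart. Among genes at least 2-fold from control in the other arrays of the group, its difference from the control mean was 0.675 times theirs (median), against 1.08 and 1.06 for arrays 1 and 2. Its mean correlation with the HSF1 shRNA arrays, 0.994, was close to that with its own group, 0.994, while arrays 1 and 2 gave 0.989 and 0.988 with the HSF1 shRNA arrays. For the 10 genes and for most other genes named, values that involve the RPA1 shRNA group are therefore also given without this array. Counts from fits without an array stand beside all-gene shares of the fit with all arrays. Those shares can change as well when an array is left out, so such counts have no matching share. All values below are log2 signals or differences of log2 signals, and a gene was called at a limma adjusted p under 0.05.

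Mmp13, Mmp3 and Mmp10 lie in the same gene cluster on chromosome 9, and each carried the AP-1 letters TGACTCA or, read on the other strand, TGAGTCA close to its start. The 250 bases before the start are shown for these 3 genes because they share this motif, while only Mmp13 was called in the comparisons that follow. The sequences are RefSeq promoters on build GRCm38.p6, plus strand, at chr9:7272264-7272513 (Mmp13), chr9:7445572-7445821 (Mmp3) and chr9:7502092-7502341 (Mmp10), and capitals mark the AP-1 letters.
Mmp13: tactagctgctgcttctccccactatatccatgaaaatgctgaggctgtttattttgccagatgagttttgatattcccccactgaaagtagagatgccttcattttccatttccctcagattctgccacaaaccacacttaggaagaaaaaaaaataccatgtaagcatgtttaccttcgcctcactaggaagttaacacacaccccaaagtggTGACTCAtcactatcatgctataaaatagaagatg
Mmp3: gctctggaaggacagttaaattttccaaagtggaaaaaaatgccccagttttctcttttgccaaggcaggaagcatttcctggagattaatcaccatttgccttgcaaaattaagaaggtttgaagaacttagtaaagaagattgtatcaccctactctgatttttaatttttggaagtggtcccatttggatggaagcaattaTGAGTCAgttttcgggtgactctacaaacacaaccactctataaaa
Mmp10: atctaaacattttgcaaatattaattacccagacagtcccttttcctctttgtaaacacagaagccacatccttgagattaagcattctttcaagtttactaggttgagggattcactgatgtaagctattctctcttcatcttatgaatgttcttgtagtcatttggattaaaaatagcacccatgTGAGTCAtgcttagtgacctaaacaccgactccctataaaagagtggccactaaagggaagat

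The first base of the AP-1 letters lay 35 bases before the start in Mmp13, 46 in Mmp3 and 63 in Mmp10. The RefSeq table listed promoters for 7 of the 10 genes, and the other 4 listed, those of Mmp14, Timp1, Timp2 and Timp3, did not hold these letters in the same window. These letters were present in 4.46% of all 32851 promoters. The letters AGGAAG or CTTCCT, a core recognised by ETS factors, were found in 5 of the 7 and in 29.5% of all promoters. Mmp13 held AGGAAG at 109 and at 62 bases before the start. The heat shock element letters GAANNTTC, the same on both strands, were found in Mmp10 and in 6.69% of all promoters. No match of one motif overlapped a match of another in these 7 promoters. A match is a description of the letters and does not show that a factor binds there.

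HSF1 shRNA was compared with the control to ask which of these genes respond to it. Mmp13, which encodes a collagenase, rose 2.65-fold, Timp1, an inhibitor of most secreted MMPs, rose 1.38-fold, and Mmp14, which encodes a membrane-anchored MMP that activates the proenzyme of MMP-2, fell 1.22-fold. So 2 of the 10 genes rose, 1 fell and 7 did not pass. Over all genes 16.1% were called, 9.89% higher and 6.21% lower. The median difference of the 10 genes was -0.10, and that of all genes was 0.04. The ranges of the 2 groups did not overlap for 7 of the 10 genes, against 37.9% of all genes. At an unadjusted p under 0.05 the counts were 5 of 10 and 28.6% of all genes. Without any 1 of the 6 arrays compared the count was 1 rise and 1 fall, with Timp1 no longer called.

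RPA1 shRNA was compared with the control in the same way. Mmp13 rose 1.67-fold, and Mmp19, Timp3, Mmp14 and Mmp2 fell 1.81-fold, 1.40-fold, 1.33-fold and 1.15-fold. Thus 1 of the 10 genes rose, 4 fell and 5 did not pass, where 30.1% of all genes were called, 15.4% higher and 14.7% lower. The median difference was -0.04 over the 10 genes and 0.02 over all genes. Ranges did not overlap for 6 of the 10, against 41.0% of all genes. At an unadjusted p under 0.05 they were 5 of 10 and 39.4%. Without RPA1 shRNA array 3 the count was 1 rise and 3 falls, with Mmp2 no longer called. Without any 1 of the control arrays it was 1 rise and 2 falls, with neither Mmp2 nor Timp3 called. The all-gene shares of these fits are not given here. Both knockdowns were set against the same 3 control arrays, so their differences share those values.

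**Figure D1:**
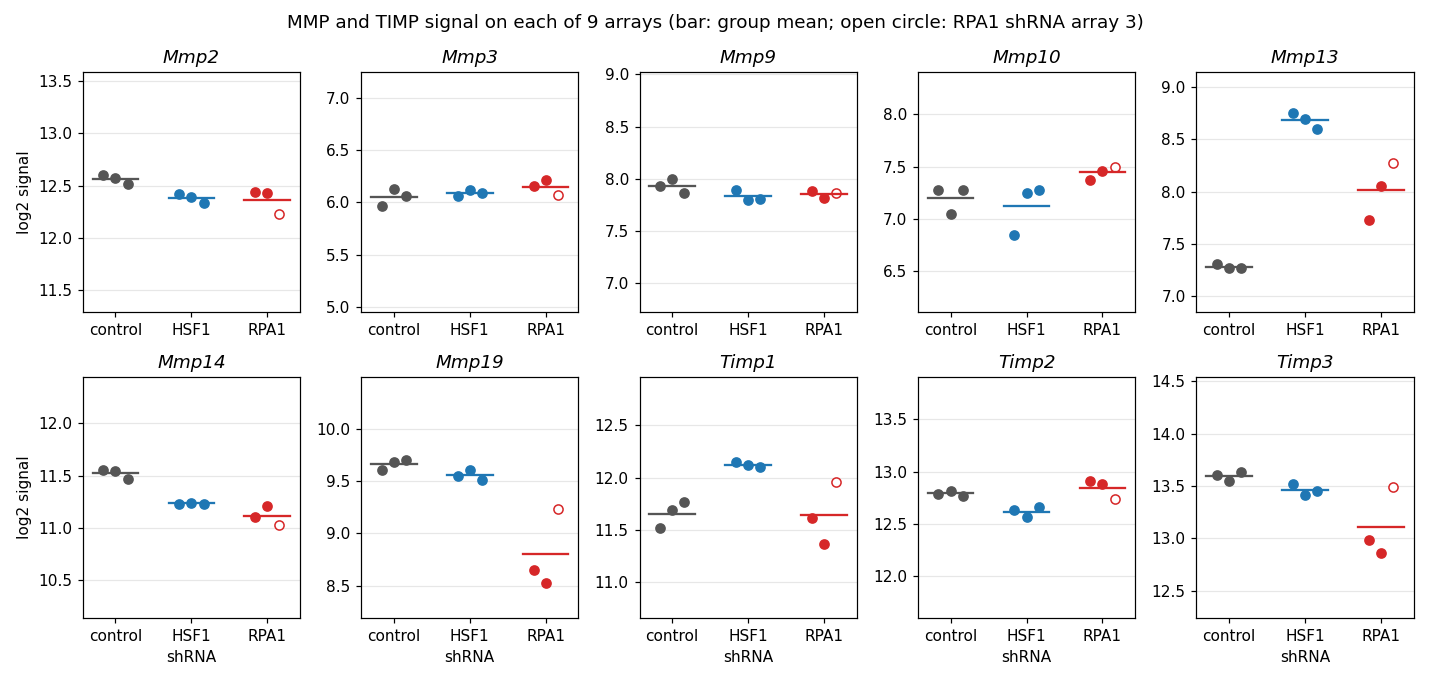
Log2 signal (vertical axis, 1 panel per gene, each spanning the same log2 width) on the 9 arrays, grouped by shRNA; points are arrays, bars are group means, and the open circle is RPA1 shRNA array 3. Mmp13 is higher on every knockdown array than on any control array, and RPA1 shRNA array 3 lies apart from arrays 1 and 2 for Mmp19, Timp1 and Timp3.

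**Figure D2:**
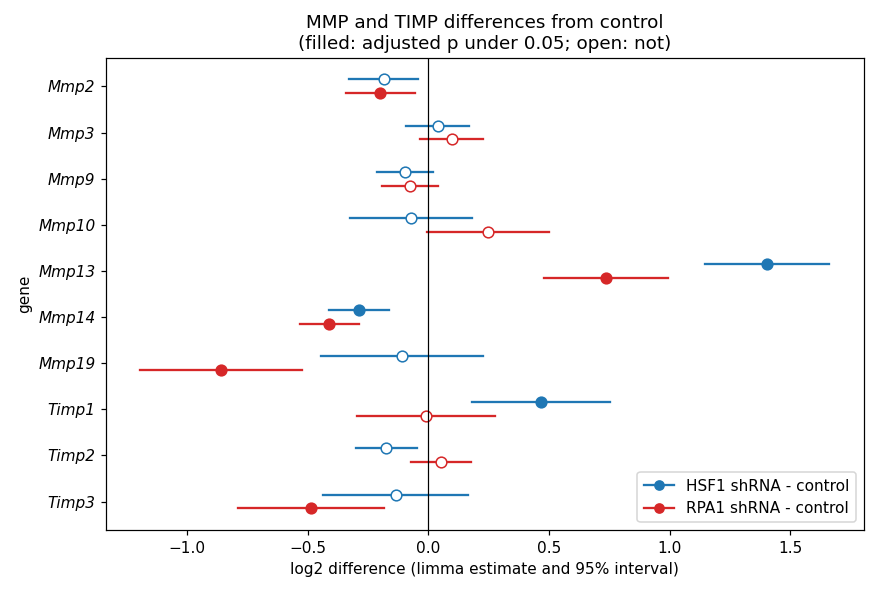
Log2 difference from control (horizontal axis) with the 95% limma interval for the 10 genes under HSF1 shRNA and RPA1 shRNA; filled points passed an adjusted p of 0.05. Mmp13 and Mmp14 passed in both comparisons, Timp1 passed under HSF1 shRNA, and Mmp2, Mmp19 and Timp3 passed under RPA1 shRNA, although Mmp2 lies at nearly the same value in both (-0.19 and -0.20).

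Mmp13 encodes a collagenase, an enzyme that cuts fibrillar collagen. Its signal was 7.31, 7.27 and 7.27 in control, 8.76, 8.70 and 8.60 under HSF1 shRNA and 7.73, 8.05 and 8.28 under RPA1 shRNA. The 3 groups did not overlap: control was lowest, RPA1 shRNA lay in the middle and HSF1 shRNA was highest. The difference from control was 1.40 ± 0.11 under HSF1 shRNA (SE, n = 3 arrays per group, limma adjusted p = 0.00012). Under RPA1 shRNA it was 0.74 ± 0.11 (limma adjusted p = 0.001), and 0.61 ± 0.09 without array 3 (limma adjusted p = 0.00062). For this gene array 3 was the farthest of its group from control, at 0.99, although the array lay closer to control than arrays 1 and 2 over the strongly changed genes. The HSF1 shRNA group exceeded the RPA1 shRNA group by 0.67 ± 0.11 (limma adjusted p = 0.0029), and by 0.80 without array 3. The mean signal of Mmp13 over the 9 arrays lay below that of the median gene, and signal over background was not measured.

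Mmp3 and Mmp10 encode stromelysins, which cut proteoglycans and other non-collagen matrix proteins. Mmp3 read 5.97, 6.13 and 6.07 in control, 6.06, 6.12 and 6.09 under HSF1 shRNA and 6.16, 6.21 and 6.08 under RPA1 shRNA. The 3 groups overlapped, and the 95% interval of the difference ran from -0.09 to 0.17 under HSF1 shRNA and from -0.03 to 0.23 under RPA1 shRNA (0.10 with all arrays, 0.13 without array 3). Mmp10 read 7.28, 7.04 and 7.28 in control, 6.85, 7.25 and 7.28 under HSF1 shRNA and 7.38, 7.46 and 7.50 under RPA1 shRNA. The RPA1 shRNA arrays were all above the control arrays, yet the difference of 0.25 ± 0.11 did not pass (limma adjusted p = 0.13; 95% interval -0.0042 to 0.50; 0.22 without array 3). Under HSF1 shRNA the interval for Mmp10 was -0.32 to 0.18, and array 1 of that group was the low one.

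Mmp13 also stood apart from its neighbours. The cluster on chromosome 9 holds 10 MMP genes in RefSeq with no other protein-coding gene between them, in the order Mmp13, Mmp12, Mmp1b, Mmp3, Mmp1a, Mmp10, Mmp8, Mmp27, Mmp20 and Mmp7. All 10 were measured, and all 10 lay below the median gene in mean signal. Of the 9 besides Mmp13, 0 were called by limma in either knockdown, and 1 in each had an unadjusted p under 0.05. Over all genes 16.1% were called under HSF1 shRNA and 30.1% under RPA1 shRNA. The shares at an unadjusted p under 0.05 were 28.6% and 39.4%. For these 9 genes the differences from control were small. Their differences ran from -0.11 to 0.17 under HSF1 shRNA and from -0.18 to 0.25 under RPA1 shRNA. The upper ends belonged to Mmp8, a neutrophil collagenase (0.17 ± 0.06, limma adjusted p = 0.09), and to Mmp10. At this low signal a change of the neighbours may not be detectable.

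**Figure D3:**
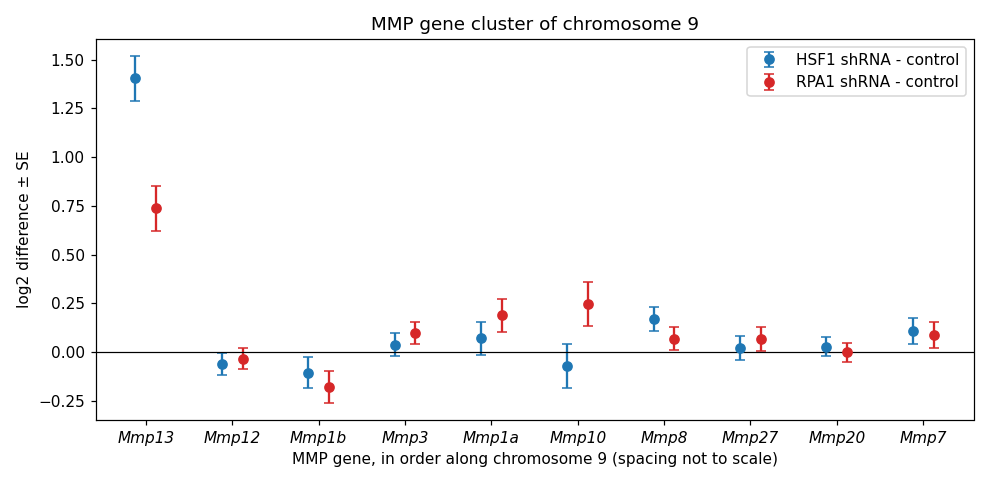
Log2 difference from control ± SE (vertical axis) for the 10 MMP genes of the chromosome 9 cluster in their order along the chromosome (horizontal axis, spacing not to scale), n = 3 arrays per group. Mmp13 at the left end lies at 1.40 and 0.74, and the other 9 genes lie between -0.18 and 0.25.

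Mmp2 and Mmp9 encode the gelatinases, which degrade denatured collagen and basement membrane collagen. Mmp2 read 12.60, 12.57 and 12.52 in control, 12.42, 12.39 and 12.33 under HSF1 shRNA and 12.44, 12.43 and 12.23 under RPA1 shRNA. Every knockdown array lay below every control array. Under RPA1 shRNA the fall of 0.20 passed (log2 -0.20 ± 0.06, limma adjusted p = 0.041), but the call was lost with only the 6 arrays compared and without any 1 of control arrays 1 to 3, HSF1 shRNA arrays 1 to 3 or RPA1 shRNA array 3. Without the last the difference was -0.13 (limma adjusted p = 0.07). Under HSF1 shRNA it was -0.19 ± 0.06 and did not pass (limma adjusted p = 0.084), although 6 of 19 alternatives called it. Mmp9, the gelatinase also known from neutrophils and macrophages, read 7.93, 8.00 and 7.87 in control, 7.89, 7.80 and 7.81 under HSF1 shRNA and 7.88, 7.82 and 7.86 under RPA1 shRNA. Its groups overlapped, and the intervals were -0.22 to 0.02 and -0.19 to 0.04, with -0.08 under RPA1 shRNA both with and without array 3.

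Mmp14 encodes MT1-MMP, which is held in the cell membrane and, with TIMP-2 as a bridge, activates the MMP-2 proenzyme. It read 11.56, 11.54 and 11.47 in control, 11.23, 11.24 and 11.23 under HSF1 shRNA and 11.10, 11.21 and 11.03 under RPA1 shRNA. The 3 groups did not overlap, in the descending order control, HSF1 shRNA and RPA1 shRNA. The gene fell under HSF1 shRNA (-0.29 ± 0.05, limma adjusted p = 0.007) and under RPA1 shRNA (-0.41 ± 0.05, limma adjusted p = 0.00045; -0.37 without array 3). Both calls held under each of the 19 alternatives. The 2 knockdowns differed by 0.12 ± 0.05, which did not pass (limma adjusted p = 0.14; 95% interval -0.0003 to 0.24), so the order of those 2 groups was not settled.

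Mmp19, a secreted MMP of broad specificity, differed under RPA1 shRNA. It read 9.61, 9.68 and 9.70 in control, 9.55, 9.60 and 9.51 under HSF1 shRNA and 8.65, 8.53 and 9.24 under RPA1 shRNA. All RPA1 shRNA arrays lay below all others, and array 3 lay closest to control. The difference was -0.86 ± 0.15 (limma adjusted p = 0.002), and -1.07 ± 0.06 without array 3 (limma adjusted p = 2.5e-06). Under HSF1 shRNA it was -0.11 ± 0.15 (limma adjusted p = 0.69), although every HSF1 shRNA array lay below every control array. This SE pools the spread of all groups. The standard deviation was 0.05 in control, 0.04 under HSF1 shRNA and 0.38 under RPA1 shRNA. Mmp19 was not called under HSF1 shRNA in any of the 19 alternatives (lowest limma adjusted p = 0.13). The direct comparison of HSF1 with RPA1 shRNA gave 0.75 ± 0.15 (limma adjusted p = 0.0059), and 0.96 without array 3.

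Among the inhibitors, Timp1 read 11.51, 11.69 and 11.77 in control, 12.15, 12.12 and 12.11 under HSF1 shRNA and 11.62, 11.36 and 11.95 under RPA1 shRNA. The HSF1 shRNA arrays were the 3 highest, and the RPA1 shRNA arrays overlapped the control. The rise under HSF1 shRNA was 0.47 ± 0.13 (limma adjusted p = 0.034), a call that was lost without any 1 of the 6 arrays compared (0.40 to 0.52) and without RPA1 shRNA array 1 (limma adjusted p = 0.051). Under RPA1 shRNA the difference was -0.01 ± 0.13 (limma adjusted p = 0.97), and -0.17 ± 0.09 without array 3 (limma adjusted p = 0.2). The knockdowns differed by 0.48 ± 0.13 (limma adjusted p = 0.023), and by 0.63 without array 3 (limma adjusted p = 0.00061). This call was lost with only the 6 arrays compared and without HSF1 shRNA arrays 1, 2 or 3 or RPA1 shRNA arrays 1 or 2.

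Timp2 encodes the inhibitor that bridges MT1-MMP and the MMP-2 proenzyme. It read 12.79, 12.81 and 12.77 in control, 12.63, 12.57 and 12.66 under HSF1 shRNA and 12.91, 12.88 and 12.74 under RPA1 shRNA. The HSF1 shRNA arrays were the 3 lowest. Their difference from control, -0.17 ± 0.06, did not pass (limma adjusted p = 0.065) but was called in 8 of 19 alternatives, among them all 3 rescalings. Against RPA1 shRNA it passed (-0.23 ± 0.06, limma adjusted p = 0.016; -0.28 without array 3). This call was lost with only the 6 arrays compared and without HSF1 shRNA array 2 or RPA1 shRNA arrays 1 or 2 (-0.19 to -0.23). Under RPA1 shRNA Timp2 stood at 0.05 ± 0.06 from control (limma adjusted p = 0.55), and at 0.10 without array 3.

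Timp3 encodes the inhibitor that binds to the matrix and also blocks several ADAM and ADAMTS proteases. It read 13.61, 13.55 and 13.63 in control, 13.52, 13.42 and 13.45 under HSF1 shRNA and 12.98, 12.86 and 13.49 under RPA1 shRNA. RPA1 shRNA arrays 1 and 2 were the lowest of the 9, while array 3 lay among the HSF1 shRNA arrays. The fall under RPA1 shRNA was 0.49 with all arrays (-0.49 ± 0.13, limma adjusted p = 0.021) and 0.68 without array 3 (-0.68 ± 0.06, limma adjusted p = 2.8e-05). With all arrays kept, the call was lost in the fit to the 6 arrays compared. It was also lost without any 1 of control arrays 1 to 3 or RPA1 shRNA arrays 1 or 2 (-0.36 to -0.51). Under HSF1 shRNA the difference was -0.14 ± 0.13 (limma adjusted p = 0.57), although every HSF1 shRNA array lay below every control array. This SE again pools the spread of all groups. The standard deviation was 0.04 in control, 0.05 under HSF1 shRNA and 0.34 under RPA1 shRNA. Timp3 was not called under HSF1 shRNA in any of the 19 alternatives (lowest limma adjusted p = 0.074).

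HSF1 shRNA was then set directly against RPA1 shRNA. Mmp13, Mmp19 and Timp1 were higher and Timp2 was lower under HSF1 shRNA, 4 of the 10 genes, where 24.4% of all genes were called, 14.7% higher and 9.71% lower. The ranges did not overlap for 6 of 10, against 34.5% of all genes. At an unadjusted p under 0.05 the counts were 6 of 10 and 35.3%. Without RPA1 shRNA array 3 the count was 5, with Timp3 added (0.54, limma adjusted p = 0.00012, against 0.35 and 0.089 with it). The 24.4% is from the fit with all arrays, and the all-gene count also changed when 1 array was left out. The step from 4 to 5 is therefore not shown to be particular to the 10 genes. The count of the 10 genes was 2 without HSF1 shRNA array 2 or without RPA1 shRNA array 1 or array 2. For Mmp2, Mmp3 and Mmp9 the 95% intervals of the difference were -0.13 to 0.16, -0.19 to 0.07 and -0.14 to 0.09.

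Of the other MMP and TIMP genes 16 of 17 were measured, and 13 of these lay below the median gene. Under HSF1 shRNA 0 were called by limma, with 3 at an unadjusted p under 0.05. Over all genes these shares were 16.1% and 28.6%. The count was 1 without HSF1 shRNA array 1 or RPA1 shRNA array 3, 2 without RPA1 shRNA array 2 or with only the 6 arrays compared, and 4 with array weights. The 3 genes at an unadjusted p under 0.05, named after their values were seen, were Mmp11, Mmp8 and Mmp25. They stood at -0.49 ± 0.18, 0.17 ± 0.06 and 0.11 ± 0.05 (limma adjusted p = 0.095, 0.09 and 0.13). Mmp11 differed between the knockdowns by -0.38, not called (limma adjusted p = 0.16), and by -0.61 without RPA1 shRNA array 3 (limma adjusted p = 0.0014). Under RPA1 shRNA 2 fell and 1 rose, 3 of 16, where 30.1% of all genes were called. Mmp16, which encodes a membrane-anchored MMP, fell (-0.66 ± 0.10, limma adjusted p = 0.00071): it read 8.89, 8.89 and 8.96 in control and 8.09, 8.24 and 8.43 under RPA1 shRNA. The other calls, named after their values were seen, were Mmp23 (-0.45 ± 0.10, limma adjusted p = 0.0059) and Mmp28, whose product is also called epilysin (0.32 ± 0.09, limma adjusted p = 0.025). The Mmp28 call was lost with only the 6 arrays compared and without control array 1, 2 or 3. With array weights 7 were called, and without RPA1 shRNA array 3 the count was 4 (Mmp16 -0.74, Mmp23 -0.47, Mmp28 0.40). The median of the 16 was 0.01 under HSF1 shRNA and 0.06 under RPA1 shRNA, against 0.04 and 0.02 over all genes.

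Genes that induce or drive MMP transcription were listed together, 19 of 20 measured. Under HSF1 shRNA 6 rose and 1 fell, and under RPA1 shRNA 9 rose and 1 fell, where 16.1% and 30.1% of all genes were called. The median was 0.17 in both, against 0.04 and 0.02 over all genes. Fosl1, which encodes the AP-1 subunit FRA-1, read 9.61, 9.63 and 9.67 in control, 10.80, 10.80 and 10.93 under HSF1 shRNA and 11.48, 11.46 and 11.58 under RPA1 shRNA. Its 3 groups did not overlap, and RPA1 shRNA was highest. The rise was 1.21 ± 0.06 under HSF1 shRNA (limma adjusted p = 1.6e-05) and 1.87 ± 0.06 under RPA1 shRNA (limma adjusted p = 3.8e-07), and the direct difference was -0.67 ± 0.06 (limma adjusted p = 0.00012). Without array 3 the last values were 1.84 and -0.63. The order of the 2 knockdowns was thus the reverse of that of Mmp13, and a link between the 2 genes was not tested. Under HSF1 shRNA the count was 4 rises and 0 falls when control array 1 or 2, or array 3 of the knockdown, was left out. Under RPA1 shRNA it was 10 rises and 1 fall without array 3.

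Of the other AP-1 subunits, Fos rose by 0.64 ± 0.07 under RPA1 shRNA (limma adjusted p = 0.00012) and by 0.28 ± 0.07 under HSF1 shRNA (limma adjusted p = 0.022), and the knockdowns differed (-0.36, limma adjusted p = 0.0043). Its call under HSF1 shRNA was lost with quantile scaling, with median centring and without control array 1 or 2 or HSF1 shRNA array 2 or 3 (0.23 to 0.27). Fosb rose by 0.78 ± 0.13 under RPA1 shRNA (limma adjusted p = 0.0017) and stood at 0.43 ± 0.13 under HSF1 shRNA (limma adjusted p = 0.055). The direct difference of Fosb, -0.35 ± 0.13, did not pass (limma adjusted p = 0.085), but passed at -0.52 without array 3 (limma adjusted p = 0.0016). Jun rose by 0.52 ± 0.05 under RPA1 shRNA (limma adjusted p = 0.00012) and stood at -0.05 ± 0.05 under HSF1 shRNA (limma adjusted p = 0.58), with a direct difference of -0.57 (limma adjusted p = 0.00019). Without array 3 the rises under RPA1 shRNA were 0.71 for Fos, 0.95 for Fosb and 0.56 for Jun. Of the ETS factors, Etv4 rose by 0.88 ± 0.10 in each knockdown (limma adjusted p = 0.00064 and 0.00019), and the value under RPA1 shRNA was 0.76 without array 3. Ets1 rose by 0.80 ± 0.10 under RPA1 shRNA (limma adjusted p = 0.00026; 0.92 without array 3) and by 0.35 ± 0.10 under HSF1 shRNA (limma adjusted p = 0.034), the latter lost without any 1 of the 6 arrays compared (0.33 to 0.37). The cytokine gene Il6 read 6.32, 6.69 and 6.86 in control, 8.97, 8.94 and 8.70 under HSF1 shRNA and 8.16, 7.58 and 9.21 under RPA1 shRNA. Il6 thus lay above control on all knockdown arrays, and RPA1 shRNA array 3 was the highest of the 9. Its rises were 2.25 ± 0.33 and 1.69 ± 0.33 (limma adjusted p = 0.0023 and 0.0039). Without array 3 the rise under RPA1 shRNA was 1.24 ± 0.19 (limma adjusted p = 0.00082), and the difference between the knockdowns, 0.56 ± 0.33 and not called with it (limma adjusted p = 0.28), passed (limma adjusted p = 0.0032).

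Genes that activate MMPs, control them at the cell surface or clear them were called in 9 of 16 under each knockdown, 8 higher and 1 lower under HSF1 shRNA and 6 higher and 3 lower under RPA1 shRNA (7 and 3 without array 3). The shares over all genes, with all arrays kept, were 16.1% and 30.1%. Plaur, the receptor of the plasminogen activator urokinase, rose in both (1.14 ± 0.16 and 1.19 ± 0.16, limma adjusted p = 0.0016 and 0.00044), the second 0.99 without array 3. Plau, the gene of urokinase itself, rose by 0.87 ± 0.10 under RPA1 shRNA (limma adjusted p = 0.00022; 0.97 without array 3) and by 0.42 ± 0.10 under HSF1 shRNA (limma adjusted p = 0.02). The latter call was lost without control array 1 or 3 or HSF1 shRNA array 1, 2 or 3 (0.39 to 0.44). Serpinb2, which encodes an inhibitor of plasminogen activators, read 6.38, 6.33 and 6.09 in control, 7.26, 7.29 and 7.22 under HSF1 shRNA and 8.37, 8.54 and 7.90 under RPA1 shRNA. Its groups did not overlap, and the rises were 0.99 ± 0.14 and 2.00 ± 0.14 (limma adjusted p = 0.002 and 1.7e-05), the second 2.19 without array 3.

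Reck, which encodes a membrane-anchored inhibitor of several MMPs, read 9.04, 9.17 and 9.16 in control, 8.60, 8.49 and 8.37 under HSF1 shRNA and 8.90, 8.998 and 8.70 under RPA1 shRNA. Every knockdown array lay below control, and the HSF1 shRNA arrays were lowest. It fell by 0.64 under HSF1 shRNA (-0.64 ± 0.08, limma adjusted p = 0.0013) and by 0.26 under RPA1 shRNA (-0.26 ± 0.08, limma adjusted p = 0.045), and the knockdowns differed (-0.38 ± 0.08, limma adjusted p = 0.01). Its call under RPA1 shRNA was lost with quantile scaling, with only the 6 arrays compared and without control array 1, 2 or 3, HSF1 shRNA array 2 or RPA1 shRNA array 1 or 3 (-0.18 to -0.30). Lcn2, whose product binds MMP-9, rose under HSF1 shRNA (0.73 ± 0.11, limma adjusted p = 0.0027) and stood at -0.06 ± 0.11 under RPA1 shRNA (0.08 without array 3, not called). The integrin gene Itgb3 fell under RPA1 shRNA (-0.68 ± 0.08, limma adjusted p = 0.00019; -0.69 without array 3) and rose under HSF1 shRNA (0.29 ± 0.08, limma adjusted p = 0.033). The latter call was lost with the replicate block (limma adjusted p = 0.068) and without control array 1 or 3 or HSF1 shRNA array 1, 2 or 3 (0.24 to 0.32).

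**Figure D4:**
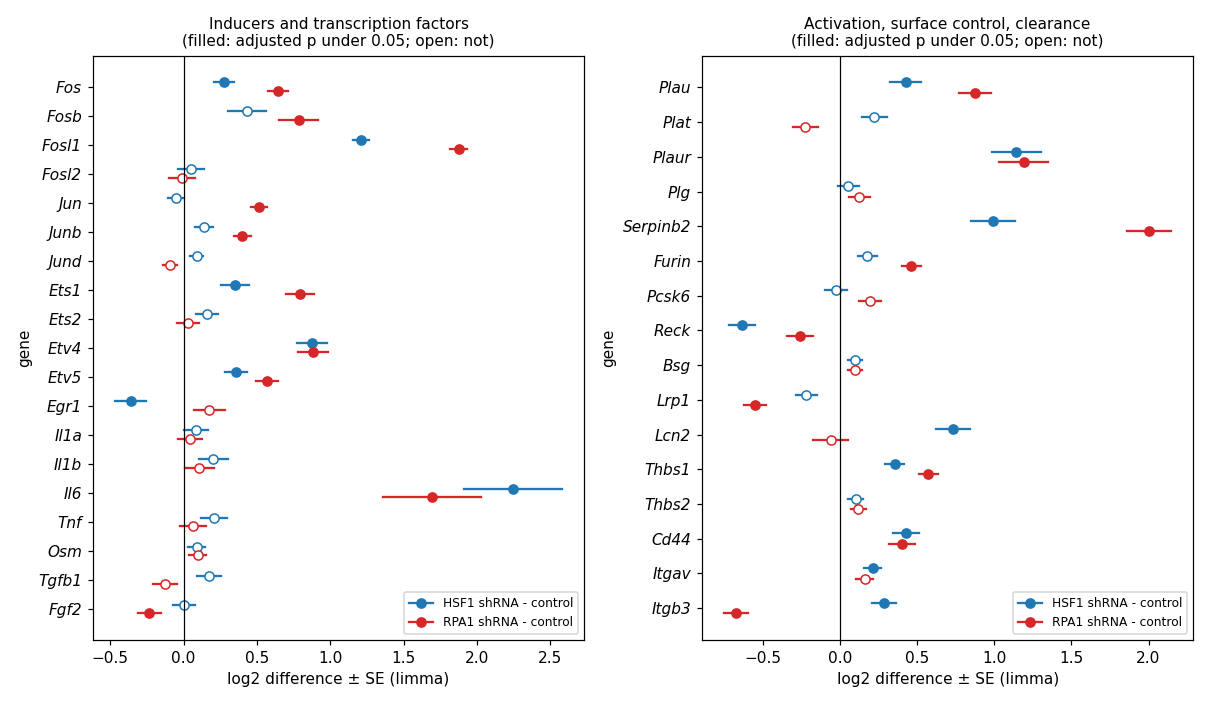
Log2 difference from control ± SE (horizontal axis) for the 19 measured inducers and transcription factors (left) and the 16 measured genes of activation, surface control and clearance (right) under HSF1 shRNA and RPA1 shRNA; filled points passed an adjusted p of 0.05. Fosl1 lies at 1.21 and 1.87, Il6 at 2.25 and 1.69, Serpinb2 at 0.99 and 2.00, and Reck at -0.64 and -0.26.

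Of 20 measured ADAM and ADAMTS proteases, relatives of the MMPs that shed surface proteins or cut proteoglycans and procollagen, 4 rose and 5 fell under HSF1 shRNA and 2 rose and 7 fell under RPA1 shRNA (3 and 7 without array 3). Over all genes, with all arrays kept, 9.89% rose and 6.21% fell in the first comparison and 15.4% and 14.7% in the second. Adam8 rose by 0.80 ± 0.12 under HSF1 shRNA (limma adjusted p = 0.0021) and by 0.57 ± 0.12 under RPA1 shRNA (limma adjusted p = 0.0049; 0.41 without array 3). The knockdowns differed for Adam8 by 0.24 with all arrays, not called (limma adjusted p = 0.19), and by 0.39 without array 3 (limma adjusted p = 0.0021). Adamts9 fell in both, more under RPA1 shRNA (-1.0002 ± 0.05, limma adjusted p = 4e-06; -1.02 without array 3) than under HSF1 shRNA (-0.27 ± 0.05, limma adjusted p = 0.0082), with a direct difference of 0.73 (limma adjusted p = 7.7e-05). Adamts14 also fell in both, by 0.63 under RPA1 shRNA (-0.63 ± 0.06, limma adjusted p = 5.7e-05; -0.67 without array 3) and by 0.49 under HSF1 shRNA (-0.49 ± 0.06, limma adjusted p = 0.00073). Its direct difference of 0.14 did not pass (limma adjusted p = 0.11), but passed at 0.19 without array 3 (limma adjusted p = 0.024). The count under HSF1 shRNA was 5 without control array 1 or 2 or HSF1 shRNA array 2 or 3. Of 8 genes of cathepsins and their inhibitor cystatin C, 1 rose in each knockdown: Cst3, named after its value was seen, under HSF1 shRNA (0.20 ± 0.05, limma adjusted p = 0.026) and the lysosomal protease gene Ctsd under RPA1 shRNA (0.29 ± 0.08, limma adjusted p = 0.025; 0.40 without array 3). The Ctsd call was lost with only the 6 arrays compared and without control arrays 2 or 3 or RPA1 shRNA arrays 1 or 2. The cathepsin count under HSF1 shRNA was 0 with cyclic loess, with the replicate block and without control array 1, 2 or 3 or HSF1 shRNA array 1 or 2.

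Among 17 measured matrix proteins that MMPs cut, 2 rose and 4 fell under HSF1 shRNA and 4 rose and 9 fell under RPA1 shRNA (4 and 11 without array 3), with medians of -0.04 and -0.23. Over all genes, with all arrays kept, 16.1% and 30.1% were called, and the medians were 0.04 and 0.02. Tnc, which encodes tenascin, fell in both (-1.04 ± 0.07 and -1.13 ± 0.07, limma adjusted p = 6.3e-05 and 5.6e-06), the second -1.12 without array 3. Col1a2, a chain of type I collagen, fell by 1.05 under RPA1 shRNA (-1.05 ± 0.12, limma adjusted p = 0.00022; -1.20 without array 3) and by 0.51 under HSF1 shRNA (-0.51 ± 0.12, limma adjusted p = 0.021). The latter call was lost without control array 1, 2 or 3 or HSF1 shRNA array 2 or 3 (-0.49 to -0.52). Dcn, the gene of decorin, fell by 0.79 under RPA1 shRNA (-0.79 ± 0.15, limma adjusted p = 0.0032; -0.59 without array 3). The count under HSF1 shRNA was 3 without control array 1 or 3 and 10 with only the 6 arrays compared or with array weights.

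The fibroblast markers moved with the RPA1 shRNA group as well: 0 of 10 rose and 6 fell, with a summed level of 15.12 to 15.25 on the log2 scale against 15.55 to 15.58 in control. Over all genes 15.4% rose and 14.7% fell. Col1a1, Col1a2, Col3a1 and Dcn are also in the list of matrix proteins above, so the 2 results are not separate. Of the 8 blood cell markers 3 rose and 0 fell, and their summed level was 10.71 to 11.18 against 9.84 to 9.98. The 3 were Cd68 (2.06 ± 0.17, limma adjusted p = 2.8e-05), Lyz2 (0.52 ± 0.07, limma adjusted p = 0.00033) and Csf1r (0.35 ± 0.07, limma adjusted p = 0.0046). The other 5, Cd14, Ptprc, Itgam, Adgre1 and Mrc1, stood between 0.01 and 0.17 and did not pass. The summed level adds signals before the log is taken, so a large rise of 1 gene such as Cd68 can move it. Without array 3 the values were 2.28 for Cd68, 0.53 for Lyz2 and 0.36 for Csf1r, and Cd14 passed as well (0.23, limma adjusted p = 0.047). For the fibroblast markers the count without array 3 was again 0 rises and 6 falls. Under HSF1 shRNA the fibroblast sum was 15.44 to 15.49 and the blood cell sum 10.17 to 10.19, with 3 falls and 1 rise and with 2 rises and 0 falls. Over all genes 9.89% rose and 6.21% fell in that comparison. Of 5 neutrophil, 5 endothelial, 6 epithelial and 6 cartilage or bone markers, 1 of each list rose and 0 fell under RPA1 shRNA. Under HSF1 shRNA this was so for all but the cartilage or bone list, where 0 were called. The neutrophil and epithelial sums lay above control in both knockdowns. The endothelial sum did so under HSF1 shRNA only, and the cartilage or bone sum overlapped control. Of the neutrophil markers Ly6g stood at 1.48 under HSF1 shRNA and 1.04 under RPA1 shRNA, while the list medians were 0.02 and 0.004. Without array 3, S100a8, S100a9, Mpo and Elane stood at -0.08, 0.01, 0.09 and 0.005 under RPA1 shRNA. The neutrophil sum thus mostly follows 1 gene. The epithelial medians were 0.19 and 0.07. The part of these shifts in the values of the MMP and TIMP genes was not tested. In such bulk RNA fewer cells of a type and less RNA per cell cannot be told apart.

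The genes whose 9 values, centred on the control mean, lay closest to Mmp13 were Lncenc1, Lmcd1 and Ly6g, at a root mean square distance of 0.12, 0.19 and 0.23 on the log2 scale. Their differences from control were 1.502, 1.14 and 1.48 under HSF1 shRNA and 0.65, 0.88 and 1.04 under RPA1 shRNA. Closest to Mmp19 were Sesn3, Btf3l4 and Babam2, at 0.07 each, with differences of -0.85, -0.84 and -0.77 under RPA1 shRNA. These genes were picked by that distance over the same arrays, so their values describe the likeness and carry no test.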

How the data were processed

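The authors deposited 1 log2 signal per probe set and array, made with RMA in Partek 6.5 per the submitters' processing notes; the log base was inferred from the values, and the background step is not given in the sources used here. RMA shrinks low signals together, which can make the fold of dim genes too small. The table held 35557 probe sets, and the annotation table gave 21789 of them 1 symbol, 1621 several and 12147 none. The brightest probe set stood for a gene, which left 19938 genes. A linear model with 1 mean per shRNA was fitted to all 9 arrays with limma 3.58.1 in R 4.3.3 (6 residual and 3.51 prior degrees of freedom), with moderated variances (eBayes); p-values were two-sided and adjusted over all genes by Benjamini-Hochberg. An exact test of 3 against 3 arrays cannot go below p = 0.1. The number of arrays limits the precision. The procedure was tested on simulated data.

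The genes, the lists and the alternatives were chosen with earlier results of these data known. The text names all 10 genes, list genes called at 1.5-fold or more, the largest difference of each list, and the 3 genes nearest to Mmp13 and to Mmp19. Jun, Mmp8, Mmp11, Mmp25 and the marker genes named with values were picked outside this rule, after their values were seen. No pairing by replicate number was seen: deviations of same-numbered arrays correlated between -0.159 and 0.093. With 3 arrays per group this check cannot exclude a pairing.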

Additional observations from a re-analysis of the deposited data

How the results depend on the processing

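In all, 19 alternatives were run: 3 rescalings, a filter on dim genes, 2 ways to treat probe sets, 2 variance models, the 6 arrays compared alone, the replicate block and 9 fits without 1 array each. The calls of Mmp13 and Mmp14 in both knockdowns and of Mmp19 under RPA1 shRNA held under all alternatives that measured them; the dim gene filter removed Mmp13. Rescaling moved the median of all genes by at most 0.04. With the replicate number as a block, 3, 5 and 4 of the 10 genes were called under HSF1 shRNA, under RPA1 shRNA and between them, as without it. The list genes called under HSF1 shRNA were 27 with the block and 32 without.

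The array weights of RPA1 shRNA arrays 1, 2 and 3 were 3.08, 0.576 and 0.213, so array 1 dominated that group. With array weights 5313, 9065 and 7926 of all genes were called, against 3210, 5998 and 4863. List genes called then numbered 49 under HSF1 shRNA and 53 between the knockdowns (35 without weights). Under HSF1 shRNA 5 of the 10 genes were called with median centring, cyclic loess, array weights or the 6 arrays compared. With only the 6 arrays compared the count was 3 under RPA1 shRNA and 2 between the knockdowns. Apart from array weights, the counts over all genes in these settings are not given here. Under HSF1 shRNA the matrix protein list went from 6 to 10 calls and the activation list from 9 to 12 with the 6 arrays compared. With median centring these lists had 6 and 9 calls, and with cyclic loess 7 and 9. Leaving out 1 array gave 1953 to 4696 genes, 2 to 5 of the 10 and 18 to 41 list genes under HSF1 shRNA. There it gave 2023 genes without control array 1, 1953 without control array 3 and 2041 without HSF1 shRNA array 3, and 5 of the 10 without RPA1 shRNA array 3. List genes were 18, 21 and 20 without control arrays 1, 2 and 3, and 20 without HSF1 shRNA array 2 or 3. It gave 3 to 5 of the 10 under RPA1 shRNA, and 3228 to 6539 genes and 2 to 5 of the 10 between the knockdowns, the 3228 without RPA1 shRNA array 1.

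Among the 10 genes the sign turned only for values not called. Mmp3 under HSF1 shRNA was -0.0235 with quantile scaling, -0.0023 with cyclic loess and -0.0065 to 0.0758 with 1 array left out. Mmp2 between the knockdowns was -0.0131, -0.0295 and -0.0203 with quantile, median and loess scaling, -0.0499 with array weights and -0.055 to 0.0502 with 1 array left out. Leaving out 1 array moved Mmp10 under HSF1 shRNA between -0.15 and 0.0646 and Timp1 under RPA1 shRNA between -0.17 and 0.13. The cause was not tested.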
